A study of Mus musculus with 12 samples.

Results

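The 45 genes described here encode RNA polymerase I, which transcribes the ribosomal RNA genes, and the nucleolar proteins that turn its transcript into ribosomal subunits. They were chosen by symbol from a list of known factors, with a mean of at least 1 CPM (library counts on a common scale, with TMM composition factors), and all 45 listed genes passed. The list was chosen with earlier results of these data known. The table holds 22618 genes, 17142 of which were tested. The RNA came from livers of male Cry1/2 double-knockout mice on the C57BL/6j background. By that label every mouse lacked the cryptochromes Cry1 and Cry2, repressors of the circadian clock. Reads of both genes were still counted, with 5.71 to 13.6 CPM for Cry1 and 12.4 to 22.8 CPM for Cry2 over the 12 libraries; since counts per gene do not show which exons were read, these levels do not check the label. All mice were 12 to 16 weeks old, were fed at night and carried a conventional gut flora. Groups were sampled at zeitgeber time (ZT) 2, 6, 10, 14, 18 and 22, with 2 libraries each and 12 in all. Since ZT12 conventionally marks lights off, the 3 later times are grouped here as night and the 3 earlier ones, ZT02 to ZT10, as day; the sources used here do not give the light schedule. No wild-type library was analysed here, so no value bears on what the loss of cryptochromes changed. Nothing in the labels says whether the 2 libraries of a time came from separate mice, so p-values reflect the spread between libraries, which may be technical.

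A ribosome is assembled mostly in the nucleolus. RNA polymerase I copies the ribosomal DNA into a long precursor RNA, box C/D and box H/ACA small nucleolar ribonucleoproteins (snoRNPs) modify its bases and riboses, and large sets of assembly factors fold, cut and export the precursors of the small and the large subunit. In mouse liver the making of ribosomes is known to follow feeding through growth signalling, and MYC is a known activator of many of its genes. The libraries were depleted of ribosomal RNA, so what was measured is the messenger RNA of the factors and not ribosomal RNA itself. In bulk tissue, fewer cells of a type and less RNA per cell cannot be told apart.

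Library totals were 34715506 to 46074052 counts. The 7 hepatocyte markers summed to between 87100 and 123000 CPM, the highest of the marker lists by far, and no list of another cell type had a gene at 0 in all libraries. Some libraries resembled a library of another time more than their own partner. Over all tested genes, scaled log2 levels correlated at 0.36 between replicates 1 of ZT02 and ZT06 and at 0.34 between replicates 2, against 0.1 between the 2 ZT02 libraries and 0.01 between the 2 ZT06 libraries. The counts of genes called are therefore given below also without 1 library of each time. The second ZT10 library stood above the first in 38 of the 45 genes, with a median ratio of 1.23 and a span of 0.884 to 2, where the median over all tested genes was 1. At ZT02 the second library was the higher one in 12 of the 45 genes, with a median ratio of 0.910. The summed CPM of the 6 proliferation markers was 5.87 in ZT10 replicate 1 and 12.6 in ZT10 replicate 2, and its part in that difference was not tested.

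The genes were high around ZT10 to ZT14 and low at ZT02. In 31 of the 45 genes the highest mean of the 6 times fell at ZT14 and in 10 at ZT10, while ZT02 held the lowest mean of 23 genes, ZT18 that of 10 and ZT06 that of 9. Both ZT14 libraries lay above both ZT02 libraries in 37 of the 45 genes, where 25.5% of all tested genes showed this order. Both lay above both ZT18 libraries in 36 genes, against 23.8% of all tested genes. Averaged over the 45 genes as log2 CPM centred on each gene's mean, ZT02 stood at -0.17 and -0.32, ZT06 at -0.21 and -0.16, ZT10 at 0.05 and 0.36, ZT14 at 0.33 and 0.33, ZT18 at -0.07 and -0.07, and ZT22 at -0.10 and 0.03. The ZT14 pair and ZT10 replicate 2 thus stood above every other library, while ZT10 replicate 1 lay only slightly above ZT22 replicate 2.

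**Figure D1:**
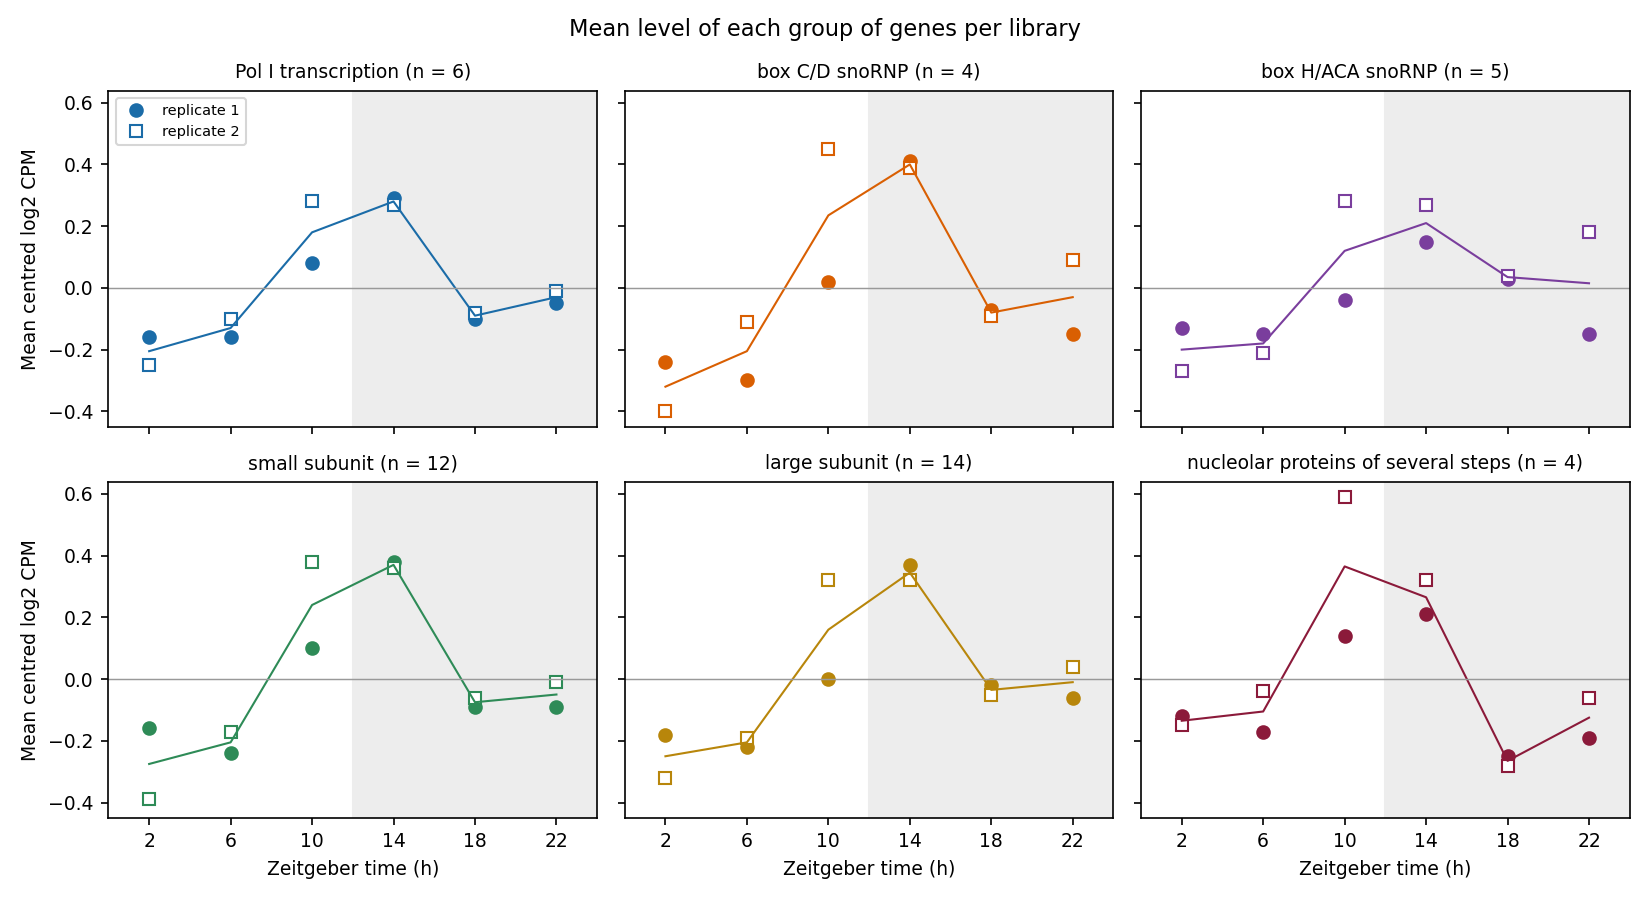
Mean level of each group of genes (vertical axis, log2 CPM centred on each gene's mean) against zeitgeber time in h, with 1 panel per step of ribosome assembly, filled circles for replicate 1, open squares for replicate 2 and a line through the mean of the 2; grey marks the conventional dark phase. Both ZT14 libraries were above both ZT02 libraries in each of the 6 groups, and in each group ZT10 replicate 2 lay above ZT10 replicate 1.

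A 24 h cosine was fitted to each gene, and the range is the fitted peak over the fitted trough. In the edgeR quasi-likelihood test of that cosine, with Benjamini-Hochberg adjusted p under 0.05 over all tested genes, 18 of the 45 genes (40.0%) were called, where 12.0% of all tested genes were. The test of any difference among the 6 times called 12 of them (26.7%), against a background of 4.82%. The median range over the 45 genes was 1.44-fold, beside 1.31-fold over all tested genes, and 6 genes (13.3%) had a range over 2-fold, where 8.95% of all tested genes did. The fitted peak lay from ZT10 to before ZT16 in 36 of the 45 genes (80.0%). Of all tested genes 25% peaked in that window. Of the 18 called members 16 did, beside 30.5% of all called genes. The window was not set in advance and lies around the members' own peaks, so these shares are a description only. The called members peaked between ZT10.9 (Gnl3) and ZT16.4 (Mrto4), with a median of ZT13.9. Fitted to the replicates 1 or the replicates 2 alone, the peaks of all 18 differed by at most 2.62 h. These 18 were called on both replicates together, which favours genes whose replicates agree. Of the 27 members not called, 22 had peaks within 4 h of each other, and the largest gap was 11.8 h.

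The number of members called rests on single libraries, and so does the number of all genes called. Without ZT14 replicate 1 the 24 h test called 10 and without ZT14 replicate 2 it called 11, and it called 4 when both ZT02 libraries or both ZT14 libraries were left out. It called 6 members without ZT02 replicate 2 and ZT06 replicate 1, and 6 without ZT02 replicate 1 and ZT06 replicate 2. Over all tested genes these 2 settings called 1276 and 568, where 2051 were called with every library. Leaving out 1 library gave 1201 to 2225 of all genes. No all-gene count was made with a whole time point left out. The calls of Bysl, Ftsj3, Nolc1, Nop16 and Nop56 held in all 20 alternatives, which do not include a whole time point left out. Those of Bop1, Ddx21 and Nop2 held whichever single library was left out. Without both ZT02 libraries the called members were Bysl, Nolc1, Nop16 and Polr1e. Without both ZT14 libraries they were Bop1, Bysl, Nolc1 and Nop16, so Ftsj3 and Nop56 were lost in both settings. The number peaking from ZT10 to before ZT16 lay between 32 and 38 of 45 when 1 library, either of those 2 pairs of libraries or 1 time point was left out.

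Median peak times by step of assembly lay between ZT10.5 and ZT14.3. The median fitted peak was ZT12.2 in polymerase I transcription, ZT14.3 in both snoRNP classes, ZT13.6 among small subunit factors and ZT13.8 among large subunit factors. It was ZT10.5 in the 4 nucleolar proteins that act at several steps. Fitted peaks spanned ZT9.37 to ZT15.2 for polymerase I, ZT12.6 to ZT15.4 for box C/D and ZT5.18 to ZT18.2 for box H/ACA. They spanned ZT10.3 to ZT19.3 for the small subunit, ZT11.3 to ZT22.5 for the large subunit and ZT8.89 to ZT12.95 for several steps. In that order 2, 1, 1, 5, 7 and 2 genes were called. The peak of a gene not called can be poorly set, with an SE of 7.98 h for Noc2l. The median range was 1.33-fold, 1.58-fold, 1.24-fold, 1.56-fold, 1.44-fold and 1.51-fold in the polymerase I, box C/D, box H/ACA, small subunit, large subunit and several-step groups. No test between steps was made. By level per length (mean CPM per kb of annotated exon), Npm1 at 39.9 and Nop10 at 31.2 stood highest and Gar1 at 0.849 lowest.

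**Figure D2:**
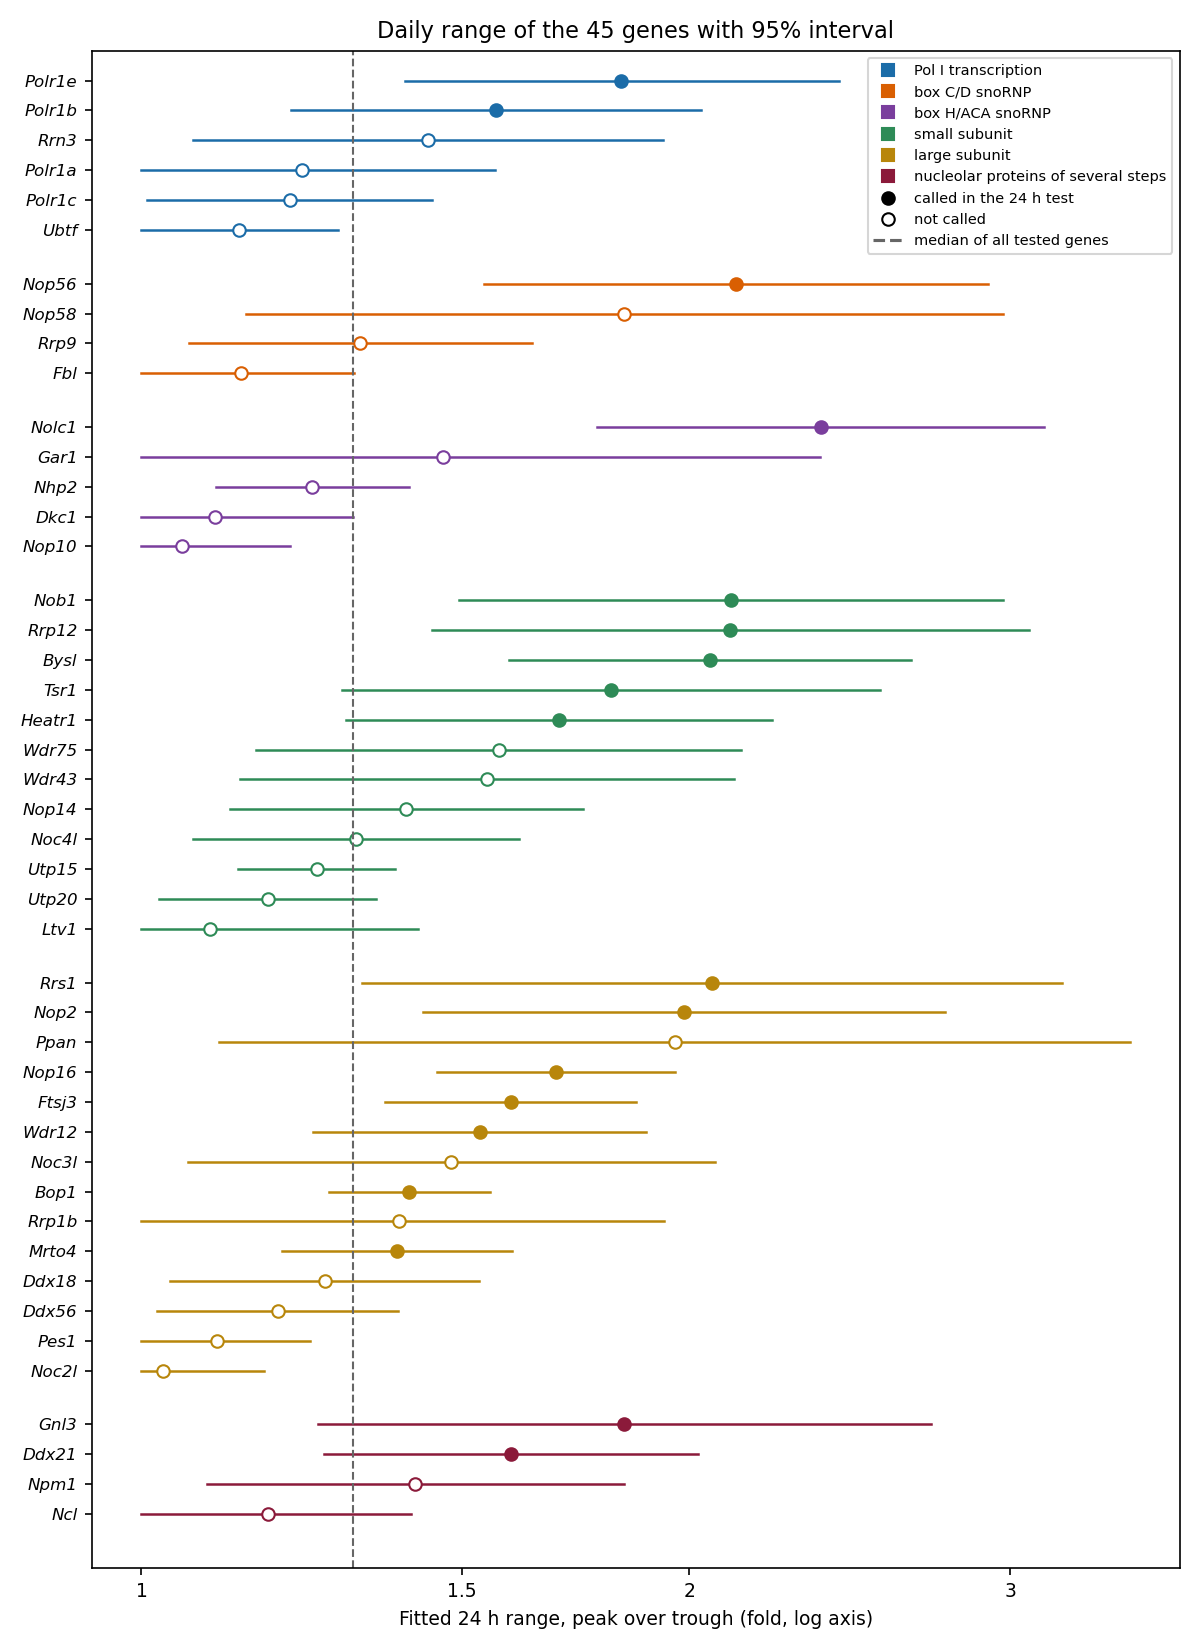
Fitted 24 h range of each of the 45 genes as fold on a log axis, with its 95% interval as a line, grouped by step and ordered within each step; filled points are called in the 24 h test and open points are not. Ranges run from 1.03-fold (Noc2l) to 2.36-fold (Nolc1), and the dashed line is the median of all tested genes, 1.31-fold.

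RefSeq promoter windows (from upstream of the annotated start to just after it, GRCm38.p6) were available for 40 of the 45 genes and were searched for CACGTG, the E-box bound by MYC and by CLOCK:BMAL1, which reads the same on both strands. Some genes had more than 1 window, and a gene was counted once if any of its windows held the motif. The motif was found in 7 of the 40 genes (17.5%), where 11.4% of 10271 tested genes with a window held it. Counting only bases before the start, it was found in 2 of the 40 (5%), against 9.65% of the tested genes. Of the 15 called members with a window, 2 (Nop2 and Tsr1) held it. The sites are shown with 10 bases on each side where the window allows, motif in capitals, to let the sites of called and not called members be compared; positions are counted from 1 at the start and from -1 before it. A match is a description of the letters and not of binding.
Nop2 at -60, called, chr6:125131813-125131838, plus strand: gtccctggatCACGTGtgttccggtg
Tsr1 at 25, called, chr11:74898094-74898119, plus strand: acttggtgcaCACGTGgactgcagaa
Rrn3 at -215, not called, chr16:13780474-13780499, plus strand: gcgccaaggtCACGTGcacacgcctc
Rrn3 at -48, not called, chr16:13780641-13780666, plus strand: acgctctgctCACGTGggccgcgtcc
Pes1 at 3, not called, chr11:3963967-3963992, plus strand: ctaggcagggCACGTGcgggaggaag
Wdr43 at 18, not called, chr17:71616222-71616247, plus strand: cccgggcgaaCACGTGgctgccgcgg
Ltv1 at 29, not called, chr10:13193094-13193119, minus strand: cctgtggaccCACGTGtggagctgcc
Utp20 at 38, not called, chr10:88826765-88826787, minus strand: gcactaactaCACGTGaggaaaa

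Of the 15 called members with a window, Nop2 alone held the motif before its start; the called genes Bop1, Rrs1 and Rrp12 had no window and were not searched. The 120 bases before the Nop2 start (chr6:125131763-125131882, plus strand) are shown as the promoter of the called gene on which that count rests, with the E-box in capitals.
Nop2 upstream: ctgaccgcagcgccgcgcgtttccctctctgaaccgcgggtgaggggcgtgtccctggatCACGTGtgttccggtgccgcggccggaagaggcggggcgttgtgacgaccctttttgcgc

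Polymerase I transcription is represented by 6 genes, and 2 of them, the second-largest catalytic subunit Polr1b and the subunit Polr1e, were called in the 24 h test. Polr1b had 17.8 and 19 CPM at ZT02, 17.8 and 19.6 CPM at ZT06, 22.2 and 30.9 CPM at ZT10, 31.1 and 30.3 CPM at ZT14, 19.8 and 21 CPM at ZT18, and 21.7 and 20.5 CPM at ZT22. Its ZT14 pair and ZT10 replicate 2 lay close together, above every other library. The range was 1.56-fold (95% interval 1.21 to 2.03) with a peak at ZT13.4 ± 0.98 h (SE) (edgeR adjusted p = 0.0295), and it was also called in the any-time test (adjusted p = 0.0405). For Polr1b the 24 h adjusted p lay between 0.00312 and 0.113 over the 20 alternatives, and was 0.0518 to 0.0771 without ZT02 replicate 1, ZT10 replicate 2 or either ZT14 library. Polr1e (GRCm38 chr4:45018583-45036565, plus strand) had 4.34 and 2.62 CPM at ZT02, 3.3 and 2.98 CPM at ZT06, 4.44 and 4.78 CPM at ZT10, 5.96 and 6.37 CPM at ZT14, 5.23 and 4.53 CPM at ZT18, and 4.35 and 3.95 CPM at ZT22. It had the largest range of the group, 1.83-fold (95% interval 1.4 to 2.42), peaking at ZT15.2 ± 0.76 h (SE) (edgeR adjusted p = 0.0224). Its 2 ZT02 libraries were apart, with replicate 2 the lowest of all 12. For Polr1e the 24 h adjusted p lay between 7.97e-04 and 0.102 over the 20 alternatives, and was 0.0507 to 0.0643 without ZT02 replicate 2 or either ZT14 library.

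The other 4 genes of the group did not pass. Ubtf, the upstream binding factor that keeps ribosomal genes open, had the smallest range of the group at 1.13-fold (95% interval 1 to 1.28) (adjusted p = 0.352), with 47.5 and 55.1 CPM at ZT02, 57.5 and 59.3 CPM at ZT06, 60.5 and 59.2 CPM at ZT10, 58.7 and 54.4 CPM at ZT14, 48.8 and 53.4 CPM at ZT18, and 54.4 and 57.6 CPM at ZT22. Its ZT06 and ZT10 libraries stood above those of ZT02 and ZT18 by a small margin. Polr1a, the largest subunit, lay at 30.6 to 50.5 CPM with a fitted range of 1.23-fold, and Polr1c, a subunit shared with RNA polymerase III, at 13.1 to 18.4 CPM with 1.21-fold. Rrn3, the initiation factor through which growth signals are known to reach polymerase I, lay at 28.7 to 52.5 CPM with 1.44-fold (adjusted p = 0.0845). Its high values were ZT10 replicate 2 and ZT14 replicate 2, while ZT14 replicate 1 stood at 33.1 CPM.

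Among the 4 box C/D proteins, whose complexes methylate ribose in ribosomal RNA, Nop56 alone was called. Nop56, a core scaffold protein of the complex (GRCm38 chr2:130274430-130279313, plus strand), had 16.5 and 14.8 CPM at ZT02, 17.1 and 19.1 CPM at ZT06, 26.1 and 39.6 CPM at ZT10, 36.8 and 32.6 CPM at ZT14, 22.8 and 21.1 CPM at ZT18, and 19.2 and 22.6 CPM at ZT22. All 4 libraries of ZT10 and ZT14 lay above the other 8. The range was 2.12-fold (95% interval 1.54 to 2.92) with a peak at ZT13.3 ± 0.72 h (SE) (edgeR adjusted p = 0.00741; any-time adjusted p = 0.0176). For Nop56 the 24 h adjusted p lay between 5.23e-06 and 0.046 over the 20 alternatives. Its partner Nop58 lay at 11.7 to 34.8 CPM with a fitted range of 1.84-fold (95% interval 1.14 to 2.97) and was not called (adjusted p = 0.0666). Fbl, the methyltransferase fibrillarin, had 13.2 and 13.1 CPM at ZT02, 12.3 and 14.3 CPM at ZT06, 13 and 14.9 CPM at ZT10, 15.5 and 14.2 CPM at ZT14, 14.2 and 15.1 CPM at ZT18, and 12.2 and 15.3 CPM at ZT22. Its range of 1.13-fold (95% interval 1 to 1.31) was the smallest of the group (adjusted p = 0.417), and its libraries of different times overlapped almost throughout. Rrp9, a protein of the U3 snoRNP, lay at 8.16 to 14.2 CPM with a fitted range of 1.32-fold (adjusted p = 0.134).

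Box H/ACA snoRNPs turn uridine into pseudouridine. Nolc1, a nucleolar chaperone of snoRNPs that is also known to bind polymerase I (GRCm38 chr19:46075863-46085530, plus strand), was the one called gene of the 5 and had the largest range of all 45. It had 21.7 and 17.7 CPM at ZT02, 26.3 and 24.2 CPM at ZT06, 35.7 and 47.2 CPM at ZT10, 51.8 and 52.4 CPM at ZT14, 37.8 and 34.6 CPM at ZT18, and 27.7 and 36.2 CPM at ZT22. The 2 ZT14 libraries were the highest, followed by ZT10 replicate 2, and the 2 ZT02 libraries were the lowest. The range was 2.36-fold (95% interval 1.78 to 3.13) with a peak at ZT14.3 ± 0.56 h (SE) (edgeR adjusted p = 0.00375), and the any-time test called it as well (adjusted p = 0.00951). For Nolc1 the 24 h adjusted p lay between 1.10e-08 and 0.0314 over the 20 alternatives. The 4 proteins of the enzyme core itself were not called. Nop10 had 35.5 and 30.6 CPM at ZT02, 33.8 and 31.5 CPM at ZT06, 38.3 and 36.4 CPM at ZT10, 31.1 and 36.2 CPM at ZT14, 34.9 and 35 CPM at ZT18, and 35.7 and 36.2 CPM at ZT22. Its range was 1.05-fold (95% interval 1 to 1.21) (adjusted p = 0.839), so that the interval of this core protein ended below the fitted range of every called member. The pseudouridine synthase Dkc1 lay at 14 to 19.1 CPM with a fitted range of 1.10-fold, Nhp2 at 9.91 to 13.7 CPM with 1.24-fold, and Gar1 at 0.916 to 2.45 CPM with 1.46-fold and an upper limit of 2.36-fold.

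**Figure D3:**
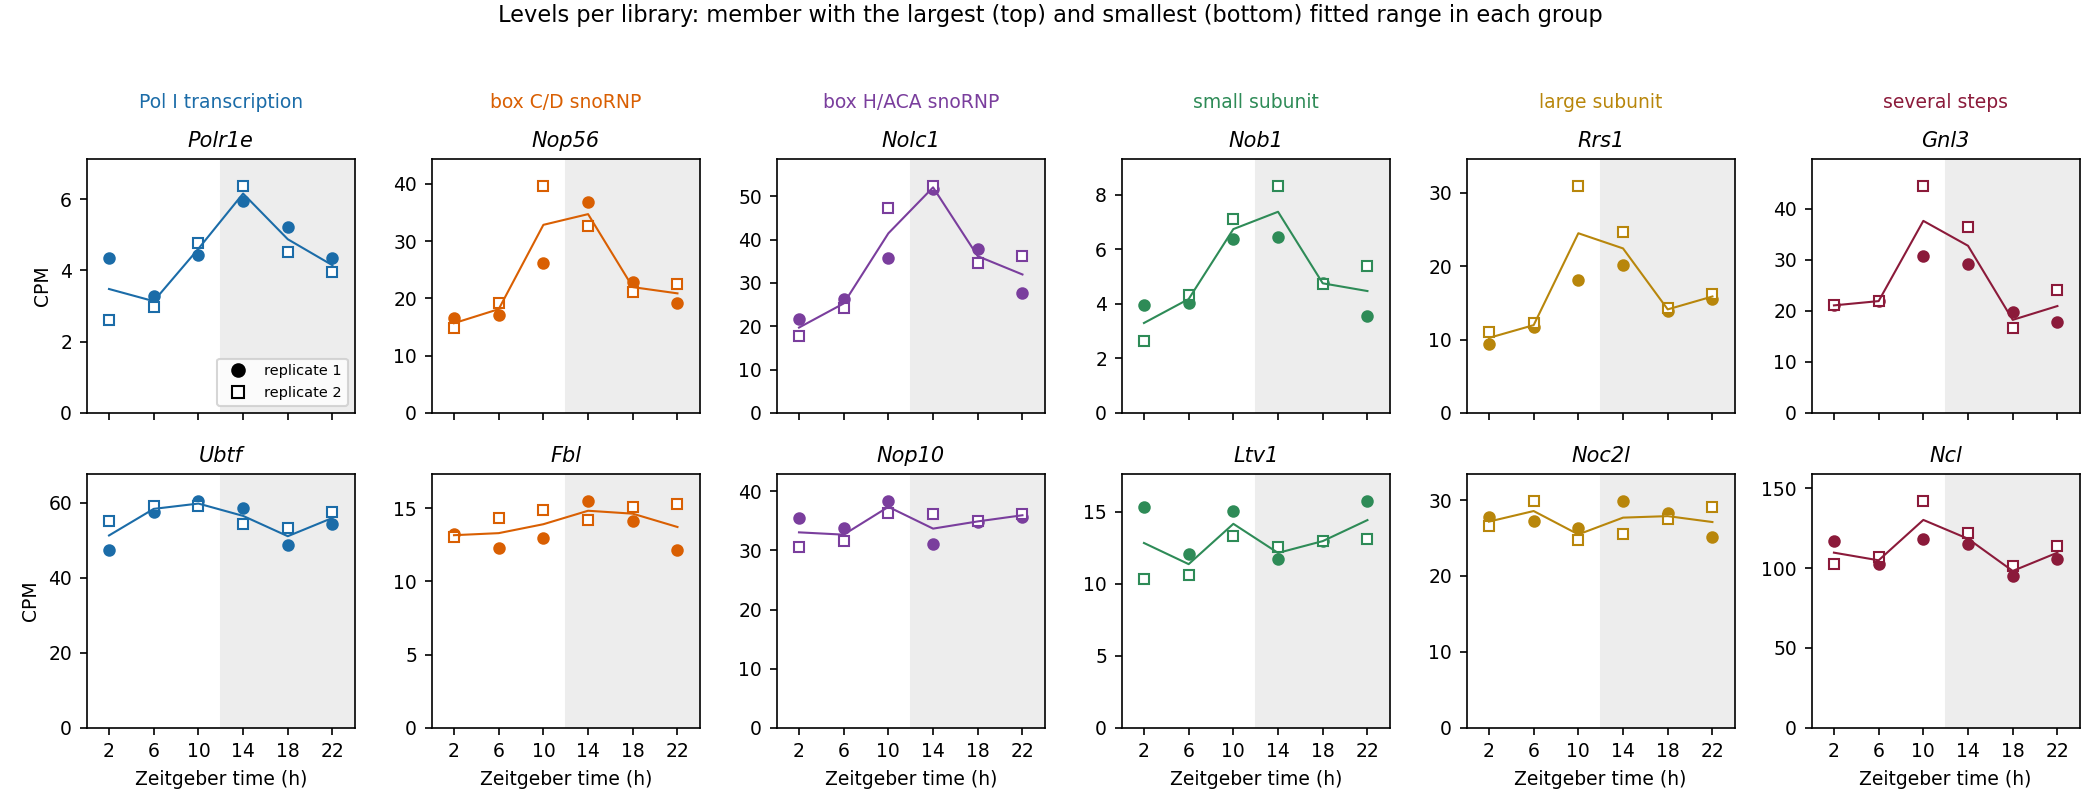
CPM (vertical axis, from 0) against zeitgeber time in h for the gene with the largest (top row) and the smallest (bottom row) fitted range in each of the 6 groups, with filled circles for replicate 1, open squares for replicate 2, lines through the means and grey for the conventional dark phase. The top genes have their highest time mean at ZT10 or ZT14, as with Nolc1 at 51.8 and 52.4 CPM at ZT14. Among the bottom genes Ubtf, Nop10 and Ncl are highest at ZT10, Fbl at ZT14, Ltv1 at ZT22 and Noc2l at ZT06. Over the 12 libraries Noc2l lay at 24.7 to 29.8 CPM, Ltv1 at 10.3 to 15.7 CPM and Ncl at 95.2 to 142 CPM.

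Small subunit assembly is represented by 12 genes, and 5 were called in the 24 h test, namely Bysl, Nob1, Rrp12, Heatr1 and Tsr1. Bysl, bystin, a late factor of the nuclear precursor of the small subunit (GRCm38 chr17:47599331-47611492, minus strand), had 11.7 and 9.05 CPM at ZT02, 11.4 and 11.2 CPM at ZT06, 15.4 and 17.3 CPM at ZT10, 27.1 and 20.1 CPM at ZT14, 14.8 and 16.7 CPM at ZT18, and 13.5 and 13.9 CPM at ZT22. ZT14 was the highest time in both libraries. The range was 2.05-fold (95% interval 1.59 to 2.65), peaking at ZT14.5 ± 0.6 h (SE) (edgeR adjusted p = 0.00456; any-time adjusted p = 0.0166). For Bysl the 24 h adjusted p lay between 2.37e-07 and 0.0278 over the 20 alternatives, and that of the any-time test lay between 9.19e-08 and 0.0557 over the 20 alternatives, and was 0.0557 without ZT14 replicate 1. On the other strand, 9% of its exon bases are covered by Ccnd3, which averaged 25.9 CPM and was called with a peak at ZT15.4, and the strand setting of the counts is not given in the sources used here.

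Nob1, the endonuclease that makes the final cut of small subunit ribosomal RNA (GRCm38 chr8:107412486-107425051, minus strand), had 3.97 and 2.62 CPM at ZT02, 4.02 and 4.33 CPM at ZT06, 6.37 and 7.12 CPM at ZT10, 6.44 and 8.32 CPM at ZT14, 4.78 and 4.73 CPM at ZT18, and 3.54 and 5.4 CPM at ZT22. Its range of 2.11-fold (95% interval 1.5 to 2.97) was the largest of the group, with a peak at ZT13.1 ± 0.78 h (SE) (edgeR adjusted p = 0.0162). All 4 libraries of ZT10 and ZT14 lay above the other 8. For Nob1 the 24 h adjusted p lay between 1.60e-04 and 0.0544 over the 20 alternatives, and was 0.0528 without ZT14 replicate 2. Rrp12, known in yeast as a factor of nuclear maturation and export, had 11.1 and 8.34 CPM at ZT02, 8.84 and 8.24 CPM at ZT06, 13.4 and 19.3 CPM at ZT10, 24.5 and 16.5 CPM at ZT14, 14.2 and 14.2 CPM at ZT18, and 12.5 and 14 CPM at ZT22. ZT14 replicate 1 was its highest library and the 2 ZT06 libraries and ZT02 replicate 2 were the lowest. The range was 2.11-fold (95% interval 1.44 to 3.07) with a peak at ZT14.9 ± 0.86 h (SE) (edgeR adjusted p = 0.0166; any-time adjusted p = 0.0366). For Rrp12 the 24 h adjusted p lay between 2.00e-04 and 0.0843 over the 20 alternatives, and was 0.0521 without ZT14 replicate 1.

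Heatr1, a factor that joins polymerase I transcription to early processing, had 23.4 and 23.9 CPM at ZT02, 24 and 29 CPM at ZT06, 29.4 and 43.8 CPM at ZT10, 49.4 and 39.2 CPM at ZT14, 31.8 and 31.8 CPM at ZT18, and 31.6 and 29.6 CPM at ZT22. The ZT14 pair and ZT10 replicate 2 were above all others. The range was 1.70-fold (95% interval 1.29 to 2.22), peaking at ZT14.1 ± 0.86 h (SE) (edgeR adjusted p = 0.0179). For Heatr1 the 24 h adjusted p lay between 5.04e-04 and 0.0828 over the 20 alternatives, and was 0.0544 without ZT14 replicate 1. Tsr1, a late factor of the cytoplasmic precursor, had 20.8 and 16.4 CPM at ZT02, 19.6 and 23.5 CPM at ZT06, 23.6 and 37.1 CPM at ZT10, 36 and 37.3 CPM at ZT14, 20.5 and 21.3 CPM at ZT18, and 19.4 and 23.2 CPM at ZT22. The same 3 libraries were the highest. The range was 1.81-fold (95% interval 1.29 to 2.55) with a peak at ZT12.6 ± 0.97 h (SE) (edgeR adjusted p = 0.0227). For Tsr1 the 24 h adjusted p lay between 8.16e-04 and 0.0649 over the 20 alternatives, and was 0.0554 to 0.0632 without ZT02 replicate 2 or either ZT14 library. Srr covers 32% of the Tsr1 exon bases on the other strand; it averaged 86.3 CPM with a fitted range of 1.06-fold and was not called (adjusted p = 0.847), and how its reads were kept from those of Tsr1 is not given in the sources used here.

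Of the 7 small subunit genes not called in the 24 h test, Nop14, a scaffold of the early precursor, was called in the any-time test (adjusted p = 0.0482; 24 h adjusted p = 0.0589). It had 14.2 and 14.4 CPM at ZT02, 14 and 15.2 CPM at ZT06, 16.5 and 20.0 CPM at ZT10, 20.9 and 20.1 CPM at ZT14, 13.4 and 13.6 CPM at ZT18, and 13.6 and 15.5 CPM at ZT22. ZT10 replicate 2 and both ZT14 libraries were its highest. For Nop14 the any-time adjusted p lay between 0.00496 and 0.139 over the 20 alternatives, and was 0.0507 to 0.139 without either ZT02 library, either ZT06 library, ZT10 replicate 2, either ZT14 library, either ZT18 library or either ZT22 library. It was also over 0.05 with RLE factors (0.0503), library totals alone (0.0571), limma-voom (0.0591) and no filter on low counts (0.061), so that the call was lost in 17 of the 20 alternatives. Ltv1, a late factor on the small subunit precursor, had the smallest range of the group at 1.09-fold (95% interval 1 to 1.42) (adjusted p = 0.833), with 15.3 and 10.3 CPM at ZT02, 12.1 and 10.7 CPM at ZT06, 15 and 13.3 CPM at ZT10, 11.7 and 12.6 CPM at ZT14, 13 and 13 CPM at ZT18, and 15.7 and 13.1 CPM at ZT22. Its 2 ZT02 libraries spanned nearly the whole range of the gene. Wdr75 and Wdr43, both of the early complex that binds the growing transcript, had fitted ranges of 1.57-fold (adjusted p = 0.0518) and 1.55-fold (adjusted p = 0.0574). Utp15 of the same complex, Noc4l and Utp20 had 1.25-fold, 1.31-fold and 1.17-fold and were not called.

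Large subunit assembly is represented by 14 genes. The 7 called in the 24 h test were Nop16, Ftsj3, Bop1, Nop2, Wdr12, Mrto4 and Rrs1. Nop16, a nucleolar assembly factor (GRCm38 chr13:54584185-54590090, minus strand), had 19.1 and 15.6 CPM at ZT02, 18.3 and 17.5 CPM at ZT06, 26.7 and 25 CPM at ZT10, 28.4 and 28.8 CPM at ZT14, 26.9 and 25.9 CPM at ZT18, and 23.6 and 23.1 CPM at ZT22. The libraries of ZT02 and ZT06 all lay below those of the other times. The range was 1.69-fold (95% interval 1.45 to 1.96), peaking at ZT15.2 ± 0.49 h (SE) (edgeR adjusted p = 0.00452; any-time adjusted p = 0.0176). For Nop16 the 24 h adjusted p lay between 2.94e-07 and 0.032 over the 20 alternatives. Ftsj3, the counterpart of the yeast methyltransferase Spb1 (GRCm38 chr11:106249142-106256079, minus strand), had 36.1 and 37.4 CPM at ZT02, 38.3 and 38 CPM at ZT06, 51.8 and 55.2 CPM at ZT10, 63.4 and 59.5 CPM at ZT14, 46.4 and 45.2 CPM at ZT18, and 43.6 and 45.1 CPM at ZT22. The 4 libraries of ZT10 and ZT14 were the highest and the replicates of each time lay close. The range was 1.59-fold (95% interval 1.36 to 1.87) with a peak at ZT14 ± 0.57 h (SE) (edgeR adjusted p = 0.00599; any-time adjusted p = 0.0086). For Ftsj3 the 24 h adjusted p lay between 2.99e-06 and 0.0463 over the 20 alternatives.

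Bop1, Pes1 and Wdr12 form one complex, PeBoW, needed for large subunit ribosomal RNA processing, with fitted ranges of 1.40-fold, 1.10-fold and 1.53-fold. Bop1 (GRCm38 chr15:76452989-76477277, minus strand) had 27.2 and 24.1 CPM at ZT02, 27 and 24.5 CPM at ZT06, 32.3 and 29.5 CPM at ZT10, 35.5 and 32.6 CPM at ZT14, 35.8 and 33.9 CPM at ZT18, and 31.5 and 31 CPM at ZT22. The ZT02 and ZT06 libraries were the lowest, and the highest time was ZT18. The range was 1.40-fold (95% interval 1.27 to 1.55) with a peak at ZT16.2 ± 0.51 h (SE) (edgeR adjusted p = 0.0111). For Bop1 the 24 h adjusted p lay between 8.67e-05 and 0.0706 over the 20 alternatives. Wdr12 had 13.6 and 11.2 CPM at ZT02, 13.2 and 12.7 CPM at ZT06, 15.6 and 20.0 CPM at ZT10, 20.6 and 18 CPM at ZT14, 13.7 and 13.7 CPM at ZT18, and 13.5 and 13.1 CPM at ZT22, with ZT10 replicate 2 and both ZT14 libraries highest. The range was 1.53-fold (95% interval 1.24 to 1.89), peaking at ZT12.8 ± 0.83 h (SE) (edgeR adjusted p = 0.0215). For Wdr12 the 24 h adjusted p lay between 0.00156 and 0.0735 over the 20 alternatives, and was 0.0537 to 0.0549 without ZT02 replicate 2 or ZT14 replicate 1. Pes1 lay at 26.4 to 32.7 CPM in all 12 libraries, with a fitted range of 1.10-fold (95% interval 1 to 1.24), and was not called (adjusted p = 0.509). The difference between the 3 was not tested.

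Nop2, which methylates a cytosine of large subunit ribosomal RNA and carries the upstream E-box printed above, had 18.5 and 16 CPM at ZT02, 17.8 and 19.2 CPM at ZT06, 22.8 and 37.5 CPM at ZT10, 39.3 and 35.2 CPM at ZT14, 22.9 and 23.6 CPM at ZT18, and 19.9 and 24.1 CPM at ZT22. The ZT14 pair and ZT10 replicate 2 were the highest by a wide gap. The range was 1.99-fold (95% interval 1.43 to 2.76) with a peak at ZT13.8 ± 0.81 h (SE) (edgeR adjusted p = 0.012; any-time adjusted p = 0.0345). For Nop2 the 24 h adjusted p lay between 5.55e-05 and 0.0549 over the 20 alternatives. Rrs1, a factor that brings in the smallest ribosomal RNA particle (GRCm38 chr1:9545408-9547455, plus strand), had 9.39 and 11.1 CPM at ZT02, 11.7 and 12.2 CPM at ZT06, 18.1 and 30.9 CPM at ZT10, 20.2 and 24.7 CPM at ZT14, 13.9 and 14.3 CPM at ZT18, and 15.6 and 16.2 CPM at ZT22. Its range of 2.06-fold (95% interval 1.32 to 3.21) was the largest of the group, peaking at ZT13.3 ± 1 h (SE) (edgeR adjusted p = 0.0326; any-time adjusted p = 0.0244). All 4 libraries of ZT10 and ZT14 lay above the other 8. For Rrs1 the 24 h adjusted p lay between 0.0021 and 0.131 over the 20 alternatives, and was 0.0531 to 0.089 without either ZT02 library, ZT06 replicate 2 or ZT14 replicate 2. Mrto4, a factor related to the ribosomal stalk protein that it precedes on the precursor, had 17.3 and 14.6 CPM at ZT02, 15.5 and 13 CPM at ZT06, 17.4 and 18.6 CPM at ZT10, 21.1 and 19.1 CPM at ZT14, 18.9 and 20.6 CPM at ZT18, and 17.9 and 18 CPM at ZT22. Its range was 1.38-fold (95% interval 1.19 to 1.6) with the latest peak of the called genes, ZT16.4 ± 0.76 h (SE) (edgeR adjusted p = 0.0301). For Mrto4 the 24 h adjusted p lay between 0.00479 and 0.113 over the 20 alternatives, and was 0.0515 to 0.0729 without ZT02 replicate 2, ZT06 replicate 2, either ZT14 library or ZT18 replicate 2, and it was 0.0565 without the filter on low counts.

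The other 7 large subunit genes, Pes1 among them, were not called. Noc2l, whose yeast counterpart acts with that of Noc3l in moving the precursor through the nucleus, had the smallest range of all 45 genes at 1.03-fold (95% interval 1 to 1.17) (adjusted p = 0.951), with 27.7 and 26.6 CPM at ZT02, 27.3 and 29.8 CPM at ZT06, 26.2 and 24.7 CPM at ZT10, 29.8 and 25.5 CPM at ZT14, 28.3 and 27.5 CPM at ZT18, and 25.1 and 29.1 CPM at ZT22. Its ZT10 libraries lay just below those of ZT02, ZT06 and ZT18, and Samd11 covers 21% of its exon bases on the other strand. Ppan, the counterpart of yeast Ssf1, had a fitted range of 1.96-fold (95% interval 1.1 to 3.49) at 8.89 to 25.5 CPM and was not called (adjusted p = 0.0854). Its 2 ZT10 libraries stood at 14 and 25.5 CPM. Noc3l, Rrp1b and the helicases Ddx18 and Ddx56 had fitted ranges of 1.48-fold, 1.39-fold, 1.26-fold and 1.19-fold, with adjusted p from 0.116 to 0.236.

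Of the 4 nucleolar proteins of several steps, Ddx21 and Gnl3 were called. Ddx21, an RNA helicase that acts in polymerase I transcription and in processing, had 36.8 and 36.2 CPM at ZT02, 34 and 42.8 CPM at ZT06, 50.4 and 63.9 CPM at ZT10, 60.5 and 57.3 CPM at ZT14, 42.1 and 41.1 CPM at ZT18, and 40.6 and 42.9 CPM at ZT22. The 4 libraries of ZT10 and ZT14 were the highest. The range was 1.60-fold (95% interval 1.26 to 2.02), peaking at ZT12.9 ± 0.85 h (SE) (edgeR adjusted p = 0.0181; any-time adjusted p = 0.034). For Ddx21 the 24 h adjusted p lay between 6.61e-04 and 0.0737 over the 20 alternatives. Gnl3, nucleostemin, a nucleolar GTPase (GRCm38 chr14:31012433-31019152, minus strand), had 21.1 and 21.1 CPM at ZT02, 21.9 and 21.9 CPM at ZT06, 30.8 and 44.4 CPM at ZT10, 29.1 and 36.4 CPM at ZT14, 19.8 and 16.7 CPM at ZT18, and 17.8 and 24.1 CPM at ZT22. Its peak at ZT10.9 ± 1.1 h (SE) was the earliest of the called genes and its range was 1.84-fold (95% interval 1.25 to 2.72) (edgeR adjusted p = 0.0324; any-time adjusted p = 0.0333). ZT10 and ZT14 held its 4 highest libraries. For Gnl3 the 24 h adjusted p lay between 0.00256 and 0.0963 over the 20 alternatives, and was 0.0505 to 0.0963 without either ZT02 library, ZT10 replicate 2, either ZT14 library, ZT18 replicate 1 or ZT22 replicate 1. Nucleolin, Ncl, had 117 and 102 CPM at ZT02, 103 and 107 CPM at ZT06, 118 and 142 CPM at ZT10, 115 and 122 CPM at ZT14, 95.2 and 101 CPM at ZT18, and 106 and 114 CPM at ZT22. Its range of 1.17-fold (95% interval 1 to 1.41) was the smallest of the group (adjusted p = 0.302). Npm1, nucleophosmin, lay at 80.9 to 161 CPM with a fitted range of 1.41-fold (adjusted p = 0.0758), and has near-identical copies elsewhere in the genome, so its counts are uncertain.

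**Figure D4:**
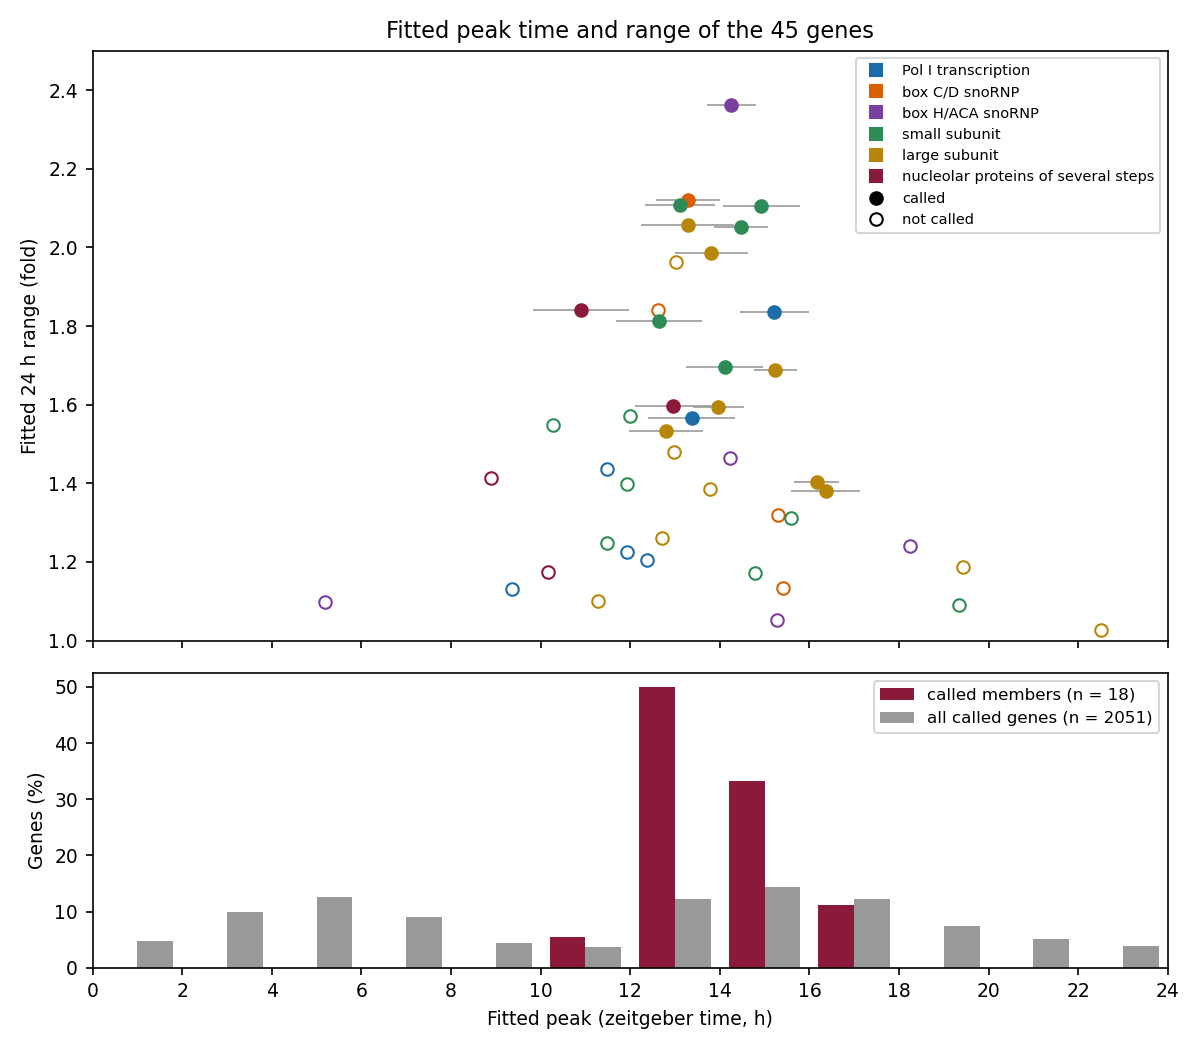
Top, fitted 24 h range (fold) against fitted peak time (zeitgeber time, h) of the 45 genes, coloured by step, with filled points called and open points not called. Horizontal bars show the SE of the peak and are drawn for the called genes only. Bottom, share of genes (%) per 2 h of peak time for the 18 called members and for all 2051 called genes. The called members lie between ZT10.9 and ZT16.4.

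Annotated small nucleolar RNA genes lie on the same strand within the span of 8 of the 45 genes. There were 5 in Nop56, 4 in Nop58, 3 each in Ncl, Gnl3 and Wdr43, 2 each in Tsr1 and Ppan, and 1 in Dkc1. Whether they lie in introns was not checked. The counts are of exons of the host gene. Of the 8 hosts, Nop56, Gnl3 and Tsr1 were called in the 24 h test, and their median range was 1.83-fold with a median peak at ZT11.8. In ZT10 replicate 2 the 8 averaged 0.66 on the centred log2 scale, the highest of their 12 libraries, and in ZT10 replicate 1 they averaged 0.11. Whether hosts differ from the remaining genes was not tested.

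Night minus day, the comparison of ZT14, ZT18 and ZT22 with ZT02, ZT06 and ZT10, asks whether levels differed between the conventional dark phase, when these mice were fed, and the light phase. By edgeR's quasi-likelihood test 7 of the 45 genes (15.6%) were higher at night, where 4.80% of all tested genes were, and 0 were lower, where 4.89% were. At an unadjusted p under 0.05 there were 16 of the 45 in either direction, beside 4563 of the 17142 tested genes. DESeq2 called 9 members higher and 0 lower, beside 1020 and 1065 of all genes. The estimate was above 0 in 36 of the 45 genes, with a median of 0.14 on the log2 scale, beside 0.01 over all tested genes. Scaled by library totals alone, the split of all called genes was 1077 higher and 624 lower and 8 members were higher. The 4 proteins of several steps had 1 estimate above 0 and a median of -0.12.

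Nolc1 spanned 27.7 to 52.4 CPM (median 37) in the 6 night libraries, against 17.7 to 47.2 CPM (median 25.3) in the 6 day libraries, a difference of 0.51 ± 0.10 on the log2 scale (SE; edgeR adjusted p = 0.0107). Nop16 spanned 23.1 to 28.8 CPM (median 26.4) in the 6 night libraries, against 15.6 to 26.7 CPM (median 18.7) in the 6 day libraries, a difference of 0.38 ± 0.07 on the log2 scale (SE; edgeR adjusted p = 0.0081). Both calls held in all 20 alternatives, though the night and day libraries overlapped, since ZT10 lay near the night levels. The 20 do not include a whole time point left out. In those settings Nolc1 was not called without ZT02 or without ZT14, and Nop16 was not called without ZT06. Bysl spanned 13.5 to 27.1 CPM (median 15.8) in the 6 night libraries, against 9.05 to 17.3 CPM (median 11.5) in the 6 day libraries, a difference of 0.47 ± 0.09 on the log2 scale (SE; edgeR adjusted p = 0.0142). Rrp12 spanned 12.5 to 24.5 CPM (median 14.2) in the 6 night libraries, against 8.24 to 19.3 CPM (median 9.98) in the 6 day libraries, a difference of 0.50 ± 0.13 on the log2 scale (SE; edgeR adjusted p = 0.0327). In both genes ZT14 held the highest night value. Bop1 spanned 31 to 35.8 CPM (median 33.2) in the 6 night libraries, against 24.1 to 32.3 CPM (median 27.1) in the 6 day libraries, a difference of 0.29 ± 0.06 on the log2 scale (SE; edgeR adjusted p = 0.0213). Ftsj3 spanned 43.6 to 63.4 CPM (median 45.8) in the 6 night libraries, against 36.1 to 55.2 CPM (median 38.2) in the 6 day libraries, a difference of 0.25 ± 0.05 on the log2 scale (SE; edgeR adjusted p = 0.0203). Mrto4 spanned 17.9 to 21.1 CPM (median 19) in the 6 night libraries, against 13 to 18.6 CPM (median 16.4) in the 6 day libraries, a difference of 0.26 ± 0.07 on the log2 scale (SE; edgeR adjusted p = 0.0471). The night and day libraries of these 3 genes overlapped as well, each through ZT10.

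Single libraries moved these calls. For Bysl the night adjusted p lay between 6.58e-04 and 0.0572 over the 20 alternatives, and was 0.0517 without ZT18 replicate 2. For Ftsj3 it lay between 0.0061 and 0.0739 over the 20 alternatives, and was 0.0537 to 0.0739 without ZT14 replicate 1, either ZT18 library or either ZT22 library. For Bop1 it lay between 0.00678 and 0.0753 over the 20 alternatives, and was 0.0551 to 0.0753 without ZT02 replicate 2, ZT06 replicate 2, ZT14 replicate 1, either ZT18 library or either ZT22 library. For Rrp12 it lay between 0.00356 and 0.112 over the 20 alternatives, and was 0.0539 to 0.0908 without ZT02 replicate 2, either ZT06 library, ZT10 replicate 1, ZT14 replicate 1, either ZT18 library or either ZT22 library. For Mrto4 it lay between 0.0258 and 0.135 over the 20 alternatives, and was 0.0676 to 0.135 without ZT02 replicate 2, ZT06 replicate 2, either ZT10 library, ZT14 replicate 1, either ZT18 library or either ZT22 library; with a term for the replicate number it was 0.0528 and without the filter on low counts 0.0842. The number higher at night was 4 without ZT02 replicate 2 and 4 without ZT06 replicate 2, 11 without ZT10 replicate 2, 3 without ZT14 replicate 1, 3 without ZT18 replicate 1, 2 without ZT18 replicate 2, 3 without ZT22 replicate 1 and 3 without ZT22 replicate 2. It was 17 when both ZT10 libraries were left out, which takes the highest day time from the comparison, and 1 when ZT02 or ZT06 was left out. Over all genes, night minus day called 611 to 1818 when 1 library was left out, against 1662 with every library. All genes were not counted with a time left out.

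The any-time test moved more with single libraries than the 24 h test did. It called 20 members without ZT10 replicate 1, 3 without ZT18 replicate 1, 3 without ZT18 replicate 2, 4 without ZT14 replicate 1 and 6 without ZT14 replicate 2. It called 6 without ZT02 replicate 2, and 7 each without ZT02 replicate 1, ZT06 replicate 1, ZT06 replicate 2 or ZT22 replicate 1. Its count over all genes ranged from 174 to 897 when 1 library was left out, against 826 with every library. Its calls of Nolc1 and Ftsj3 held in all 20 alternatives. Those do not include a whole time point left out, and without both ZT14 libraries the any-time test called 0 members. For Nop16 the any-time adjusted p lay between 5.86e-06 and 0.0608 over the 20 alternatives, and was 0.06 to 0.0608 without either ZT18 library. For Nop56 it lay between 1.23e-08 and 0.0659 over the 20 alternatives, and was 0.0537 to 0.0572 without ZT14 replicate 1 or either ZT18 library. For Rrs1 it lay between 1.58e-07 and 0.0854 over the 20 alternatives, and was 0.0519 to 0.0721 without ZT02 replicate 1, ZT14 replicate 2 or either ZT18 library. For Ddx21 it lay between 4.61e-05 and 0.0948 over the 20 alternatives, and was 0.0588 to 0.0948 without either ZT02 library, either ZT14 library, either ZT18 library or either ZT22 library. For Rrp12 it lay between 8.66e-06 and 0.115 over the 20 alternatives, and was 0.0577 to 0.0951 without ZT02 replicate 2, either ZT06 library, ZT14 replicate 1, either ZT18 library or either ZT22 library, and 0.0533 with limma-voom. For Nop2 it lay between 4.34e-06 and 0.115 over the 20 alternatives, and was 0.0553 to 0.115 without either ZT02 library, either ZT06 library, either ZT14 library, either ZT18 library or ZT22 replicate 1. For Gnl3 it lay between 4.05e-06 and 0.1 over the 20 alternatives, and was 0.0516 to 0.1 without either ZT02 library, either ZT06 library, ZT10 replicate 2, either ZT14 library or either ZT18 library. For Polr1b it lay between 2.96e-04 and 0.121 over the 20 alternatives, and was 0.0622 to 0.121 without either ZT02 library, either ZT06 library, either ZT14 library, either ZT18 library or either ZT22 library.

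A further 113 genes outside the 45 were tested, all of ribosome biogenesis apart from 8 of MYC and related transcription factors. They too were chosen with earlier results of these data known. Of the 113, 29 (25.7%) were called in the 24 h test, beside 12.0% of all tested genes. Of these 29, 24 (82.8%) peaked from ZT10 to before ZT16, beside 30.5% of all called genes. By group the calls were 0 of 8 in polymerase I transcription, 9 of 37 small subunit factors and 15 of 47 large subunit factors. Also called were 2 of 13 exosome genes and 3 of the 8 genes of MYC and related factors. The any-time test called 15 (13.3%), beside 4.82% of all tested genes. Night minus day called Mlx, Tbl3 and Wdr18 higher (2.65%, beside 4.80% of all tested genes) and Sbds, Rcl1 and Ddx52 lower (2.65%, beside 4.89%), shares below the background in both directions. The 24 h test called 9 of these genes without ZT14 replicate 2, 12 without ZT14 replicate 1 or ZT10 replicate 2, 15 without ZT02 replicate 2, 16 without ZT02 replicate 1 and 18 without ZT06 replicate 2.

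The 10 with the smallest adjusted p were, by role, as follows. Wdr74, a large subunit factor, had 11.3 to 20.8 CPM, a range of 1.61-fold and a peak at ZT13.6 ± 0.52 h (SE) (edgeR adjusted p = 0.00534). Mak16, a large subunit factor, had 11.5 to 27.5 CPM, a range of 1.92-fold and a peak at ZT11.7 ± 0.77 h (SE) (edgeR adjusted p = 0.0101). Both were highest at ZT10 and ZT14. Ddx31, a nucleolar helicase, had 5.67 to 13.5 CPM, a range of 1.76-fold and a peak at ZT13.7 ± 0.78 h (SE) (edgeR adjusted p = 0.015). Ddx27, another helicase, had 19.8 to 30.9 CPM, a range of 1.41-fold and a peak at ZT13.4 ± 0.72 h (SE) (edgeR adjusted p = 0.0197). Rrp8, a methyltransferase of large subunit ribosomal RNA, had 9.34 to 17.9 CPM, a range of 1.75-fold and a peak at ZT12.9 ± 0.86 h (SE) (edgeR adjusted p = 0.0172). These 3 had their highest time mean at ZT14. Urb1, a large subunit factor, had 7.77 to 17.8 CPM, a range of 1.78-fold and a peak at ZT12.4 ± 0.88 h (SE) (edgeR adjusted p = 0.02). Sbds, which readies the large subunit for translation by helping to release Eif6, had 29 to 51.1 CPM, a range of 1.48-fold and a peak at ZT8.65 ± 0.71 h (SE) (edgeR adjusted p = 0.0153). Sbds was thus earlier than all called members. Utp4, an early small subunit factor listed as Cirh1a, had 13.4 to 22.5 CPM, a range of 1.60-fold and a peak at ZT13.1 ± 0.65 h (SE) (edgeR adjusted p = 0.00877). Ngdn, a small subunit factor, had 13.2 to 24 CPM, a range of 1.53-fold and a peak at ZT14.2 ± 0.8 h (SE) (edgeR adjusted p = 0.0182). Mlx, the dimer partner of the carbohydrate response factor, had 23.3 to 52.4 CPM, a range of 1.82-fold and a peak at ZT16 ± 0.62 h (SE) (edgeR adjusted p = 0.00599). Mlx was high at ZT14 and ZT18 and low at ZT02 and ZT06.

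Myc itself was not called (adjusted p = 0.338). It had 3.4 and 7.91 CPM at ZT02, 7.02 and 5.03 CPM at ZT06, 1.38 and 4.95 CPM at ZT10, 8.48 and 6.6 CPM at ZT14, 2.44 and 2.59 CPM at ZT18, and 38.4 and 2.47 CPM at ZT22. ZT22 replicate 1 stood at 38.4 CPM, and no other library was above 8.48 CPM. In that library the 45 genes averaged -0.10 on the centred log2 scale, against 0.03 in ZT22 replicate 2. Any relation of Myc to the levels of the 45 genes was not tested.

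Summed markers of other cell types are given beside the ZT14 maximum. The 9 lymphocyte markers summed to 14.9 and 16.4 CPM at ZT14, the lowest of the 12 libraries, against 21.1 to 30.7 CPM elsewhere. The 8 pancreatic acinar markers summed to 34.5 CPM in ZT14 replicate 2 and 9.74 CPM in ZT14 replicate 1, against 6.35 to 18.2 CPM elsewhere. The 3 erythroid markers stood at 162 and 163 CPM at ZT14, against 72.9 to 166 CPM elsewhere. Summed Kupffer cell markers lay at 299 to 548 CPM, sinusoidal endothelial markers at 375 to 527 CPM, stellate cell markers at 334 to 447 CPM, cholangiocyte markers at 35.6 to 70.4 CPM, neutrophil markers at 2.87 to 6.26 CPM and proliferation markers at 5.87 to 17.0 CPM. Their part in the members' daily profile was not tested.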

How the data were processed

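Liver RNA was depleted of ribosomal RNA and sequenced in read pairs with a kit that marks strand, per the labels' protocols. The values the authors deposited are exon counts of each gene, not normalized. The submitters' processing notes name STAR 2.4.0i and mm10; the counting tool, its strand setting and its annotation are not given in the sources used here, so genes with an overlapping gene on the other strand are uncertain. The members and lists were chosen with earlier results of these data known. Of 22618 gene identifiers, 22054 matched GENCODE M21 on GRCm38, which gave positions and exon lengths (union of all exons), and 564 did not. Promoters are from RefSeq (GRCm38.p6).

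The quasi-likelihood F test of edgeR 4.0.16 in R 4.3.3 was run on the counts with TMM scaling, after filterByExpr (at least 10 counts, total at least 15). On all tested genes it gave a test of 24 h cosine and sine terms, a test of any difference among 6 times and the night minus day contrast, each adjusted by Benjamini-Hochberg and called under 0.05. A contrast's SE is the log2 difference divided by the root of F. Range, peak, their SE and 95% intervals come from a least-squares cosine fit to log2 CPM (prior count 2, 9 residual degrees of freedom). At 3 counts, a count of 0 allows up to 0.0651 to 0.0864 CPM per library, counting error only. The 2 libraries of each time differed beyond counting noise (chi-square divided by its degrees of freedom, 15.5 to 92.2). Members called in the 24 h or any-time test, and those with the largest and smallest range of each step, are given per library; of the other pathway genes, the 10 with the smallest adjusted p and Myc. Alternatives were DESeq2 1.42.0, RLE factors, library totals, limma-voom (limma 3.58.1), no filter, a replicate block, each library and 2 pairs of libraries left out. Taf1a, Nop9, Tsr3, Exosc6, Mycl, Hbb-bs and Hbb-bt were not analysed here.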

Additional observations from a re-analysis of the deposited data

Results flagged for a closer look

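For each of the 45 genes the 6 night and the 6 day libraries were examined for 1 library far from the others (Dixon's criterion at the 95% level), 90 sets in all. Of these sets 14 were flagged. Chance alone would flag about 1 in 20 only if levels did not differ between the times pooled in a set. Levels were high around ZT10 and ZT14, so the 14 flags cannot be held against that rate and do not show aberrant libraries. In 9 of the flagged sets ZT10 replicate 2 stood above the other day libraries. In that library Polr1b had 30.9 CPM (next day library 22.2 CPM), Rrn3 52.5 CPM (37.2 CPM), Gar1 2.05 CPM (1.3 CPM), Heatr1 43.8 CPM (29.4 CPM) and Tsr1 37.1 CPM (23.6 CPM). Nop2 had 37.5 CPM (22.8 CPM), Ddx18 12.9 CPM (10.5 CPM), Ppan 25.5 CPM (14 CPM) and Npm1 161 CPM (115 CPM). The genes were not flagged independently, since they share this library.

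Among night libraries, ZT14 replicate 1 was far above the others for the polymerase subunit Polr1a (50.5 CPM, next 38.1 CPM) and for Rrp12 (24.5 CPM, next 16.5 CPM), and far below them for Nop10 (31.1 CPM, next 34.9 CPM). ZT14 replicate 2 was far above for Rrn3 (48 CPM, next 33.1 CPM), and ZT22 replicate 1 for Ltv1 (15.7 CPM, next 13.1 CPM).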

How the results depend on the processing

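No member call changed the direction of its night minus day difference or moved its peak by more than 6 h under any alternative. DESeq2 called more genes. In the 24 h test it called 26 members, 3416 of all genes and 45 other pathway genes. The counts were 24, 2532 and 35 in the any-time test and 9, 2085 and 11 at night minus day. Without ZT02 replicate 2 and ZT06 replicate 1 together, the 24 h test called 6, 1276 and 15, the any-time test 3 members and 5 other pathway genes, and night minus day 2, 865 and 2. Without ZT02 replicate 1 and ZT06 replicate 2 together, the 24 h test called 6, 568 and 6, the any-time test 6 members and 5 other pathway genes, and night minus day 1107 of all genes. Leaving out 1 library at a time gave 10 to 22 members, 1201 to 2225 of all genes and 9 to 29 other pathway genes in the 24 h test; 3 to 20, 174 to 897 and 2 to 20 in the any-time test; and 2 to 11, 611 to 1818 and 2 to 10 at night minus day. Leaving out a whole time point was chosen after seeing the data and was counted for members only. Without ZT02 the 3 tests called 4, 6 and 1 members, and without ZT14 4, 0 and 2 (at an unadjusted p under 0.05 the any-time test had 25 then; only edgeR was run). Without ZT18 the any-time test called 6 and night minus day 4; without ZT06 night minus day called 1, and without ZT10 17. The peak counts without libraries or times, also chosen after seeing the data, were 32 to 38 of 45. The cause of these shifts was not tested beyond the smaller number of libraries. With the replicate number as a block, the tests called 18, 13 and 6 members; the deviations of same-numbered libraries correlated at 0.269 between ZT02 and ZT06, at 0.107 between ZT14 and ZT18 and at -0.181 to 0.088 in the other 13 pairs of times. The numbers thus went together at ZT02 and ZT06, but do not pair the samples over the whole day. With a prior count of 0.5 the median range and peak stayed within the spread of the replicates. With 2 libraries per time, a gene that was not called may still vary over the day.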
